A study of Mus musculus with 2 samples.

Results

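The HoxB cluster is the row of Hoxb genes on mouse chromosome 11, and its genes were taken as every array probe named Hoxb followed by a number, alone or as 1 member of a divergent pair. This gave 7 genes (Hoxb1, Hoxb3, Hoxb4, Hoxb5, Hoxb6, Hoxb9 and Hoxb13) of the 16908 genes with at least 3 probes, and 224 probes of 474222 used. Hoxb2, Hoxb7 and Hoxb8 were not analysed here. The rule uses names and not values, though the cluster was picked with earlier results of these data known.

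The data came from ChIP-chip of Ring1B in mouse embryonic stem (ES) cells. Chromatin was fixed with formaldehyde, sheared and precipitated with a monoclonal antibody to Ring1B. The recovered DNA (Cy5) was hybridised with input DNA (Cy3), which is whole-cell chromatin taken without the antibody, after both were amplified by linker-mediated PCR. The 2 arrays were the 2 slides of one mouse promoter set and shared no probe, so each promoter was measured once. The only group was Ring1B-precipitated DNA over input from ES cells. The labels gave no strain, line name, genotype or number of cultures, and there was no mock precipitation, dye swap or cell without Ring1B. The source names began with Muscle while the titles named ES cells, and the titles were followed.

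All Hoxb probes lay on slide 2, between 96297878 and 96477287 of chromosome 11 in the coordinates of the array. Their genome build is not given in any source used here. The probes had 45 to 60 bases (median 53), and neighbouring probes of a gene were a median of 179 bp apart. All values below are log2 ratios of Ring1B precipitate over input, minus the median probe of the slide (0.16 on slide 2). With no replicate there was no test. The SD of a gene is the spread over its probes, which are different stretches of DNA and not repeats of a measurement. The error given for a single probe is that of the scanner software, with a median of 0.30 over the Hoxb probes and 0.45 over slide 2.

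Ring1B is the catalytic core of Polycomb repressive complex PRC1, an enzyme that attaches ubiquitin to histone H2A and holds genes of development in a silent state. Hox genes code for homeodomain transcription factors that give cells their position along the head-to-tail axis, and in vertebrates they stand in clusters in the order in which they are used along the body. In ES cells the clusters are silent and are known as a main site of Polycomb binding. The ratio comes from a population of cells, so a larger share of cells with Ring1B and more Ring1B in each cell cannot be told apart.

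Ring1B was enriched over input across the HoxB cluster. The mean ratio was at least 1, which is a doubling over input relative to the median probe, at 6 of 7 Hoxb genes, against a background of 1.99% of all 16908 genes. The median of the 7 gene means was 1.73, and that of all genes was -0.10. Of the 224 Hoxb probes, 167 were at or above 1, which is 74.6% (exact 95% interval 68.3% to 80.1%, counting error only, with neighbouring probes not independent). Over all probes of slide 2 the share was 21.7%. At the other end, 13 Hoxb probes (5.80%) were at or below -1, against 20.9% of the probes of slide 2. The median Hoxb probe stood at 1.80.

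The sequences of the probe with the highest ratio in each gene are shown as the stretches at the upper end of the values. Capitals mark CG, the dinucleotide in which CpG islands are rich. Array coordinates are given, and the strand is not stated in the array files.
Hoxb1, chr11:96476190-96476236, ratio 4.19: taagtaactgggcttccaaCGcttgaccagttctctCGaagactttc
Hoxb3, chr11:96453665-96453710, ratio 4.17: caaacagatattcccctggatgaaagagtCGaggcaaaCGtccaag
Hoxb4, chr11:96428396-96428452, ratio 3.15: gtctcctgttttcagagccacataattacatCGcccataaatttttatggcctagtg
Hoxb5, chr11:96412778-96412823, ratio 3.24: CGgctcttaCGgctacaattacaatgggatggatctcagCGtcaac
Hoxb6, chr11:96406055-96406114, ratio 3.93: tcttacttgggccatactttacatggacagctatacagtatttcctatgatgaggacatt
Hoxb9, chr11:96381326-96381370, ratio 4.87: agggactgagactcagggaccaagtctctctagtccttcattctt
Hoxb13, chr11:96305365-96305409, ratio 3.77: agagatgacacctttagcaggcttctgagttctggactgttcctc
The Hoxb5 probe held 3 CG pairs, those of Hoxb1 and Hoxb3 held 2 each and that of Hoxb4 held 1, whereas those of Hoxb6, Hoxb9 and Hoxb13 held none. 6 of the 7 were annotated as inside the gene, and the Hoxb6 probe was a promoter probe at -2056 bp from the start. Their errors ran from 0.37 at Hoxb4 to 0.53 at Hoxb9. Input was below the slide median of 305 array units at the probes of Hoxb9 (4761 of Ring1B signal, 146 of input), Hoxb1 (4608 and 225) and Hoxb6 (5009 and 295), and was 745 to 1779 at the other 4.

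The probes with the lowest ratio in Hoxb1 and Hoxb9, the genes that held most of the low probes, are shown for contrast, with CG in capitals.
Hoxb1, chr11:96471154-96471213, ratio -3.69: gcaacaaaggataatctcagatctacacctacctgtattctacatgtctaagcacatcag
Hoxb9, chr11:96375263-96375312, ratio -2.70: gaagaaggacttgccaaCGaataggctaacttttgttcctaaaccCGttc
The lowest Hoxb1 probe lay at -3591 bp from the start of the gene and the lowest Hoxb9 probe at -5134 bp. Both had bright input: the Hoxb1 probe had 228 array units of Ring1B signal against 2635 of input, and the Hoxb9 probe had 486 against 2823.

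**Figure D1:**
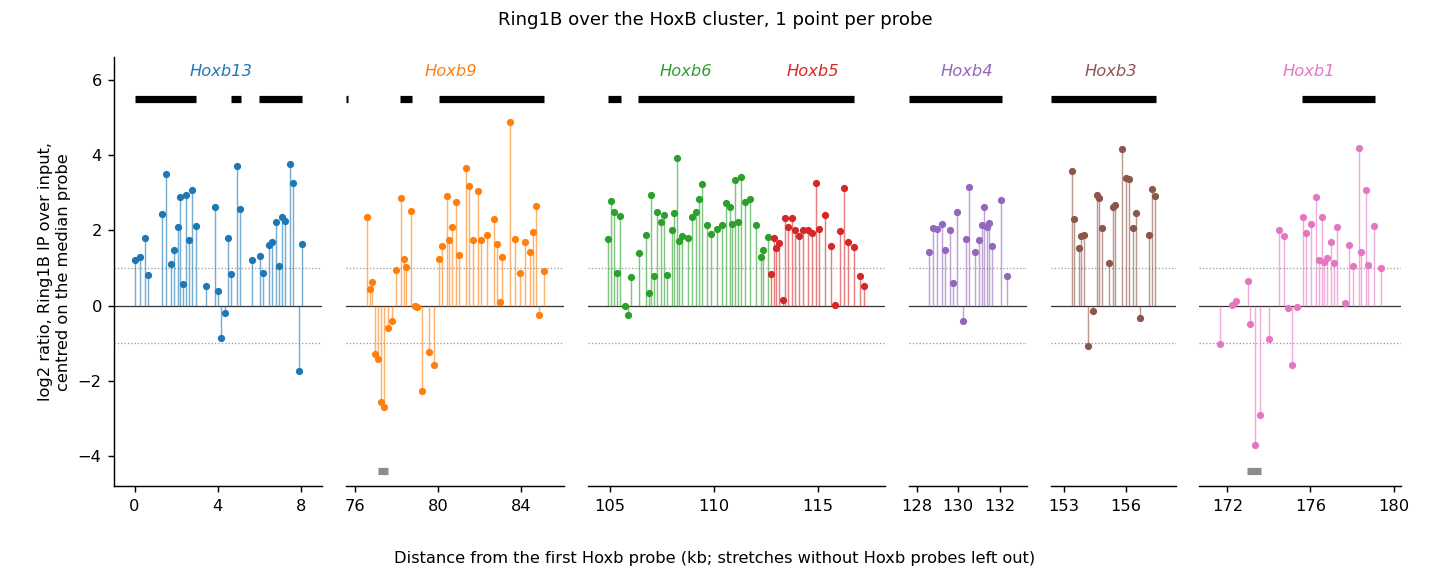
Log2 ratio of Ring1B precipitate over input (vertical axis, the slide's median probe set to 0) at each Hoxb probe, by distance in kb from the first Hoxb probe, with stretches without Hoxb probes left out. Black bars mark regions with a running mean of at least 1 and grey bars those at or below -1, neighbouring microRNA and LOC544810 probes included. Hoxb6 and Hoxb5 share 1 region of 10406 bp, and the low probes gather in the outer upstream parts of Hoxb9 and Hoxb1.

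At the head end of the series, Hoxb1, which sets the identity of a hindbrain segment, had the lowest mean of the 7. Its 33 probes ran from -3.69 through a median of 1.15 to 4.19, with a mean of 0.90 ± 1.66 (SD over 33 probes), a 1.87-fold enrichment. 21 of the 33 probes reached 1, and 4 were -1 or less. The mean hid differences along the gene. Within 2500 bp before the start the ratio averaged 1.34 ± 1.25 (13 probes) and inside the gene 1.74 ± 1.16 (10 probes), whereas beyond 2500 bp it averaged -1.03 ± 1.52 (8 probes) and no probe reached 1. Of the 8 outer probes, 3 were -1 or less and averaged -2.54, and the other 5 averaged -0.12. Those at 0.01 and 0.12 were dim in both channels, with errors of 2.07 and 2.08, so their ratios say little about Ring1B. The change was not sharp. From -3000 to -2000 bp the mean was 0.73, and from -2000 to -1000 bp it was 0.66, with 4 probes in each stretch. The limit of 2500 bp was set after the values were seen. A limit of 2000 bp moved the outer mean to -0.40.

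Hoxb3, which acts in the hindbrain and in the tissues of the neck, had the highest mean. Its 22 probes ran from -1.06 through a median of 2.38 to 4.17, and the mean was 2.15 ± 1.30, a 4.43-fold enrichment. Of all 16908 genes on the array, 4 had a higher mean, so that Hoxb3 ranked 5. Its median Ring1B signal was 6332 array units, against 1191 of input. The 12 probes inside the gene averaged 2.45 ± 1.18. The 10 promoter probes averaged 1.78 ± 1.41. These 10 are annotated as a divergent promoter that Hoxb3 shares with LOC544810, so their signal cannot be given to either gene alone. Among them were 2 neighbouring probes below 0, at -1.06 and -0.14, and the other 8 were all above 1.

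Hoxb4, known for its effect on the growth of blood stem cells, had 20 probes from -0.40 through a median of 2.02 to 3.15. The mean was 1.81 ± 0.81, a 3.50-fold enrichment, and 17 of the 20 probes were at or above 1. Its 5 promoter probes were close together at 1.83 ± 0.36, and its 13 inside probes averaged 1.80 ± 0.90.

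Hoxb5, active in the neural crest and in the placing of the shoulder, was the one gene of the 7 in which no probe was below the median of the slide. Its 24 probes ran from 0.01 through a median of 1.89 to 3.24, and the mean was 1.73 ± 0.80, a 3.31-fold enrichment. The 5 probes in the 1000 bp before the start averaged 2.04 ± 0.17, the tightest of the bins of 1000 bp that held at least 5 Hoxb probes.

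Hoxb6, a marker of early lateral mesoderm, had 43 probes from -0.25 through a median of 2.15 to 3.93. The mean was 2.04 ± 0.90, a 4.12-fold enrichment and rank 9 of all genes. All 13 probes within 2500 bp before the start were at or above 1, with a mean of 2.37 ± 0.64. Beyond 2500 bp the 17 probes averaged 1.53 ± 1.02, of which 10 were at or above 1.

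At the tail end, Hoxb9, which takes part in patterning the ribs, had 45 probes from -2.70 through a median of 1.36 to 4.87. The mean was 1.07 ± 1.69, a 2.09-fold enrichment. All 13 probes within 2500 bp before the start were at or above 1 and averaged 2.22 ± 0.78. Of the 19 probes beyond 2500 bp, 5 reached 1 and 7 were -1 or less, with a mean of -0.11 ± 1.68. This mean was near 0 and changed sign with the limit, to 0.16 at 2000 bp and 0.04 at 3000 bp. The outer part was split: its 7 low probes averaged -1.86 and had bright input (1263 to 8802 array units), while the other 12 averaged 0.91 and had dim input (56.3 to 405 array units). Among the 12, the probes at -0.01 and -0.03 were dim in both channels, with errors of 2.07 and 2.06.

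Hoxb13, the outermost gene of the cluster, acts in the tail and the prostate and is separated from the others by a long gap. Its 37 probes ran from -1.73 through a median of 1.70 to 3.77, and the mean was 1.68 ± 1.21, a 3.19-fold enrichment. Here the outer upstream part was not lower: beyond 2500 bp the ratio averaged 1.93 ± 0.92 (14 probes), and within 2500 bp it averaged 1.35 ± 1.44 (10 probes). The lowest probe lay downstream of the gene, at 2532 bp past the start.

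In order of mean, the genes ran Hoxb3, Hoxb6, Hoxb4, Hoxb5, Hoxb13, Hoxb9 and Hoxb1. Every neighbouring pair in this order differed by less than the smaller SD of the pair, and the widest step was 0.61, between Hoxb13 and Hoxb9. Of all 21 pairs of Hoxb genes, 4 differed by more than the smaller SD and 0 by more than the larger SD. The order therefore separates no neighbours beyond the spread over their probes. That spread is not the error of a mean, so it cannot decide whether the order would hold in a repeat. Promoter probes also ranged from 5 at Hoxb4 to 32 at Hoxb9, so the means cover unlike parts of the genes. Probes inside the gene averaged higher than promoter probes at 6 of 7 Hoxb genes, with a median difference of 0.49, and at 18 of the 26 other Hox genes, with a median difference of 0.38. At Hoxb5 the difference was only 0.03, and at Hoxb4, the exception, it was -0.03. The share over all genes was not counted, so this is not shown to be particular to Hox genes.

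**Figure D2:**
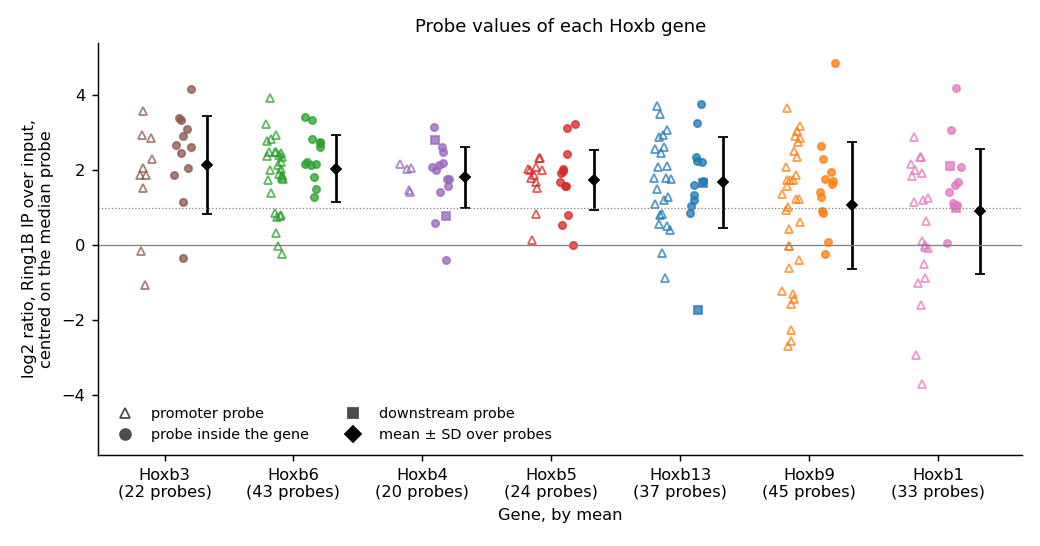
Log2 ratio of Ring1B precipitate over input at each probe of the 7 Hoxb genes, ordered by mean (promoter probes as open triangles, probes inside the gene as circles, downstream probes as squares). Diamonds with bars are the mean ± SD over probes. The bars of neighbouring genes overlap throughout, and the long lower tails belong to promoter probes of Hoxb9 and Hoxb1.

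Aligned at the start, taken as midway between the last promoter probe and the first inside probe, the signal over all 7 genes was broad. It averaged 1.96 ± 0.91 in the 1000 bp before the start (34 probes, 31 of them at or above 1), and 1.98 ± 1.13 in the 1000 bp after it (33 probes). From 1000 to 2000 bp inside it was 1.98 ± 0.94 (35 probes). Farther upstream it was lower, with 1.61 ± 1.20 between -2000 and -1000 bp (32 probes) and 0.76 ± 1.95 between -4000 and -3000 bp (20 probes). The bins beyond 2000 bp upstream rest on 4 genes, since Hoxb3, Hoxb4 and Hoxb5 had no probe there. Of the 13 probes at or below -1, 11 were promoter probes of Hoxb1 and Hoxb9.

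**Figure D3:**
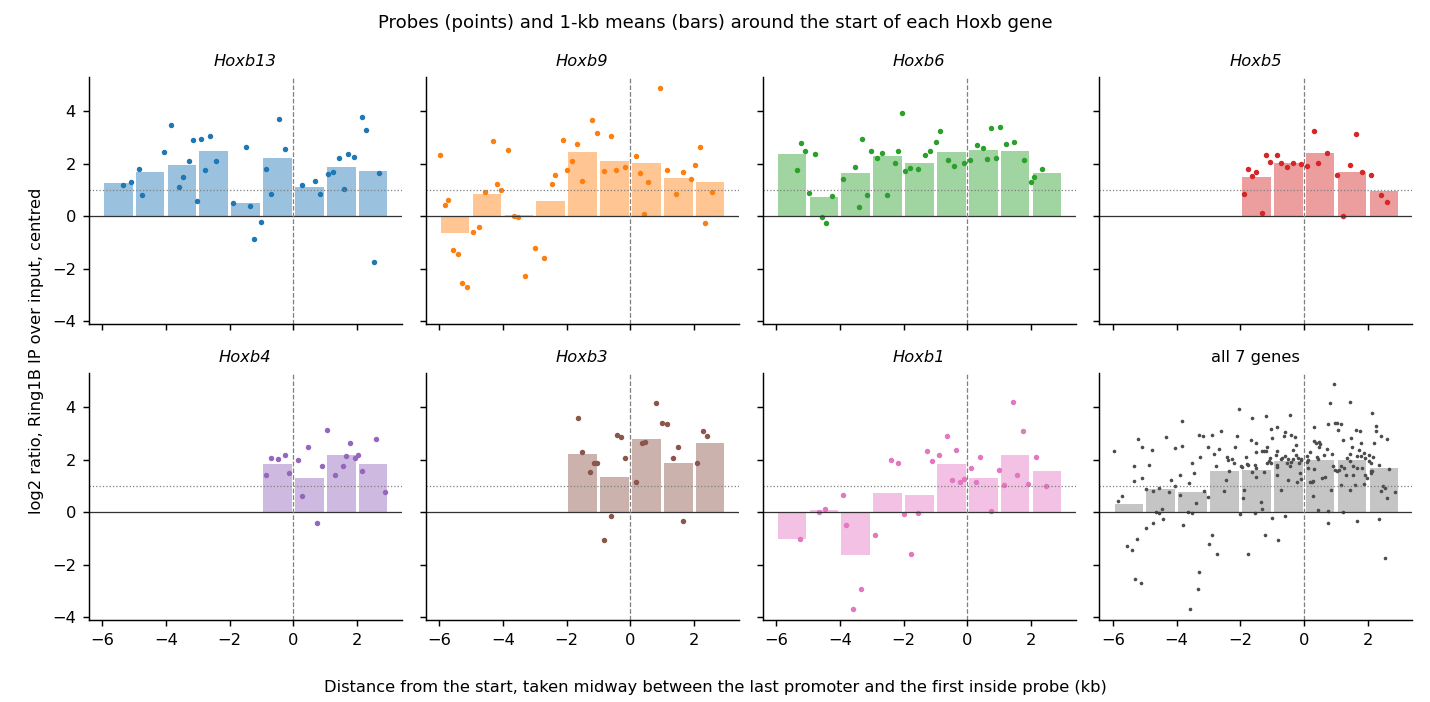
Log2 ratio of Ring1B precipitate over input at each probe (points) and its mean over bins of 1000 bp (bars), by distance in kb from the start, for each Hoxb gene and for all 7. Bars near 2 span the start in the panel of all genes, and the bars drop towards or below 0 in the outer upstream parts of Hoxb9 and Hoxb1 but not of Hoxb13.

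Regions were runs of at least 3 probes with a running mean (probes within 500 bp) of at least 1 and no gap of 1000 bp or more. From the first to the last Hoxb probe, neighbours included, there were 12 of them, covering 39891 bp and 182 of the 224 Hoxb probes (81.3%), and each of the 7 genes had a region of at least 2000 bp, against 3.04% of all genes. The longest, chr11:96404220-96414625, ran over Hoxb6 (35 probes) and Hoxb5 (22 probes) for 10406 bp with a mean of 2.06, and was the longest of the 5839 regions above 1 on both slides. The tiled span sets an upper limit to these lengths.

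The region at chr11:96448737-96455306 covered Hoxb3 and LOC544810 over 6570 bp, with a mean of 2.02 (34 probes). That at chr11:96424037-96429978 joined the promoter of the microRNA mir-10a to Hoxb4 over 5942 bp, with a mean of 1.91 (32 probes). Hoxb9 had a region of 5070 bp with a mean of 1.93 (26 probes), which began in the upstream part and ran to the last probe of the gene. Hoxb1 had one of 3473 bp with a mean of 1.83 (19 probes). Hoxb13 was cut into regions of 2985, 499 and 2060 bp.

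Runs below -1 were few in the cluster, 3 in all and 1645 bp. In Hoxb9, chr11:96374984-96375488 averaged -1.82 (4 probes), and in Hoxb1, chr11:96470838-96471482 averaged -1.61 (4 probes). The last, of 495 bp and with a mean of -1.34, lay in LOC544810. On both slides together there were 10093 such runs.

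Named probes between the Hoxb genes belonged to 2 microRNA promoters and to LOC544810. mir-10a averaged 1.16 ± 1.40 (30 probes), LOC544810 averaged 1.20 ± 1.46 (29 probes, 10 of them shared with Hoxb3) and mir-196a-1, upstream of Hoxb9, averaged 0.72 ± 1.30 (28 probes). Outside the cluster, 8 genes lay within 300000 bp, and 0 of them had a mean of at least 1, against 1.99% of all genes. They ran from -0.37 ± 1.86 at Snf8, a part of the endosomal sorting machinery, to 0.76 ± 1.43 at B4galnt2, a glycosyltransferase. Between these were Ttll6 at -0.25, Igf2bp1 at -0.19, Gip at -0.11, Ube2z at 0.18, Atp5g1 at 0.29 and Scap1 at 0.30. The nearest on either side were Ttll6, 52524 bp before the first Hoxb probe, and Scap1, 91685 bp after the last. None of the 8 had a region of at least 2000 bp, against 3.04% of all genes. With 8 genes, 0 cannot be told apart from these shares of all genes, so the counts mark no edge of the enrichment.

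Signal levels differed from the slide as well as the ratio. The median Hoxb probe had 3424 array units of Ring1B signal and 844 of input, whereas the median probe of slide 2 had 384 and 305. Input stood well above background at 97.3% of the Hoxb probes, against 76.3% of those of slide 2. Both channels were at the floor value of the software at 4 Hoxb probes (1.79%), against 15.5% on slide 2, and 0 Hoxb probes were saturated. Over the 172467 probes of slide 2 without floor values the ratio was lower where input was brighter, with r = -0.55 and rho = -0.58. The ratio itself contains the input channel. Over the 217 Hoxb probes without floor values r was -0.34 and rho -0.35.

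The share at or above 1 was therefore set out in 5 equal classes of the input signal of slide 2. In the brightest class, 36 of 63 Hoxb probes (57.1%) were at or above 1, against 4.58% of all probes there. In the next the figures were 74 of 89 (83.1%) and 12.0%, and in the middle class 47 of 52 (90.4%) and 31.8%. In the second lowest they were 9 of 15 (60.0%) and 40.3%. In the dimmest class, 1 of 5 Hoxb probes (20.0%) and 20.1% of all probes were at or above 1.

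**Figure D4:**
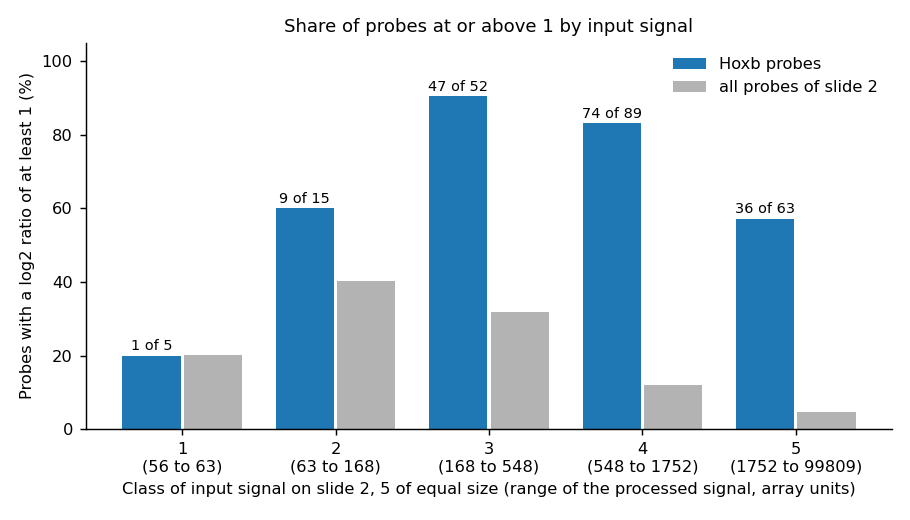
Percent of probes with a log2 ratio of at least 1 in each of 5 equal classes of the input signal of slide 2 (horizontal axis, processed signal in array units), for Hoxb probes (blue, with counts) and all probes of slide 2 (grey). The bars of the Hoxb probes are higher in the upper 4 classes and level with the others in the dimmest, which holds 5 Hoxb probes.

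CG pairs were more frequent in the Hoxb probes, with at least 1 in 58.9% of them against 43.2% of all probes of slide 2, and the median GC content was 42.6% against 40.4%. The share at or above 1 was 62.0% of the 92 Hoxb probes without CG, 82.7% of the 81 with 1, 81.3% of the 32 with 2 and 89.5% of the 19 with 3 or more. Over all probes of slide 2 the same classes gave 18.9%, 24.1%, 29.0% and 26.2%. Across Hoxb probes the CG count and the ratio had r = 0.19 and rho = 0.23, and GC content and the ratio r = 0.03 and rho = 0.03. Most probes beyond 2500 bp upstream of Hoxb1 and Hoxb9 held no CG. Few of them reached 1 (0 of 8 at Hoxb1 and 5 of 19 at Hoxb9). CG count is thus mixed with position along the gene, and the 2 were not separated.

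RefSeq promoter windows (250 bases before to 50 after the start, GRCm38.p6, + strand) were found for Hoxb4 and Hoxb1. They are shown because array probes matched them exactly, which ties a ratio to bases at the start; capitals mark the probes.
Hoxb4, chr11:96318017-96318316: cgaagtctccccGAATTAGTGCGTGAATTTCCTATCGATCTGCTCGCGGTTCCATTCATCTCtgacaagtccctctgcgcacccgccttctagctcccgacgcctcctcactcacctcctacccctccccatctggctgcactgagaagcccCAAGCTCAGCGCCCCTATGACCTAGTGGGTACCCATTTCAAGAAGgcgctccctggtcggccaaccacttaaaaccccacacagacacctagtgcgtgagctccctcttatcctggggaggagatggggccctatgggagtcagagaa
Hoxb1, chr11:96365508-96365807: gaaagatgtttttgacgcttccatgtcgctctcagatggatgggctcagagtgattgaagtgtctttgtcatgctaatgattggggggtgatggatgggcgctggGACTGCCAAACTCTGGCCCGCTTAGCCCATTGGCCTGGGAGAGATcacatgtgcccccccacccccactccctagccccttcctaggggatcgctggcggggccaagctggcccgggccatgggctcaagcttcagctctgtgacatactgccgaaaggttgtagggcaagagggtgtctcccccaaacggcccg
The probes of Hoxb4 at positions -238 to -189 and -98 to -54 had ratios of 2.16 (error 0.30) and 1.48 (error 0.25), and that of Hoxb1 at -145 to -101 had 1.25 (error 0.24). The Ring1B signal of the Hoxb1 probe was 9031 array units against 3388 of input. The windows held 14 CG pairs in Hoxb4 and 10 in Hoxb1, against a median of 7 over all 32851 windows. Of all windows, 36.3% held at least 14 and 43.5% at least 10.

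The octamer bound by POU factors such as Oct4 was looked for as ATTTGCAT or its reverse complement. It stood in 2 of the 224 Hoxb probes (0.893%), against 0.379% of all probes of slide 2, and 2 probes are too few to compare these shares. Both probes, shown with the octamer in capitals, were above 2, where the median Hoxb probe was 1.80. A link between the octamer and the ratio was not tested.
Hoxb9, chr11:96378551-96378608, ratio 2.09: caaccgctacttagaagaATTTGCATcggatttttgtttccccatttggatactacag
Hoxb6, chr11:96405105-96405159, ratio 2.49: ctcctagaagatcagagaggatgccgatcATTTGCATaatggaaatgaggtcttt
Neither of the 2 Hoxb windows of RefSeq held it, and 1.74% of all windows did.

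Set beside the other Hox clusters, HoxB had the highest median gene mean, 1.73, against 1.41 for HoxA, 1.32 for HoxC and 1.40 for HoxD. The share of probes at or above 1 was 74.6% in HoxB, 65.0% in HoxA, 62.3% in HoxC and 52.0% in HoxD. These differences had no test, and HoxA and HoxD were measured on slide 1. Gene means also mix promoter and inside probes in unlike numbers. Inside probes alone averaged 1.63 at Hoxb9 to 2.45 at Hoxb3 in HoxB, and 1.59 at Hoxc10 to 2.88 at Hoxc11 in HoxC. Ordered by inside probes, the middle gene of HoxB was Hoxb4 at 1.80. In HoxC the middle genes were Hoxc12 and Hoxc5, at 1.94 and 2.03. They were Hoxa6 and Hoxa13 in HoxA, at 1.48 and 1.65, and Hoxd4 and Hoxd9 in HoxD, at 1.04 and 1.63. By inside probes HoxB thus lay above HoxA and HoxD but below HoxC. The count of genes at or above 1 was 6 of 7 in HoxB, 8 of 10 in HoxA (from -0.48 at Hoxa3 to 2.13 at Hoxa11), 8 of 8 in HoxC (from 1.03 at Hoxc8 to 2.02 at Hoxc9) and 5 of 8 in HoxD (from 0.31 at Hoxd4 to 2.01 at Hoxd10). Of the 7 Hoxb genes, 5 had a higher mean than every paralogue measured. Hoxb3 stood farthest off, at 2.15 against paralogues from -0.48 to 0.52, and Hoxb4 had 1.81 against 0.31 to 0.84. The -0.48 is that of Hoxa3, which had only 8 probes. Promoter probes numbered 10 at Hoxb3 and 31 at Hoxd3, and 5 at Hoxb4, 42 at Hoxa4 and 23 at Hoxd4. Promoter and inside probes thus weigh differently in these means. With inside probes alone, Hoxb3 had 2.45 against 0.43 at Hoxd3, and Hoxb4 had 1.80 against 0.50 at Hoxa4 and 1.04 at Hoxd4. Hoxb5 differed from its highest paralogue by less than the last digit printed. On inside probes Hoxb5 had 1.74 and was below Hoxa5 at 1.76 and Hoxc5 at 2.03. Hoxb13 had 1.96 on them, below Hoxd13 at 2.11 but above Hoxa13 at 1.65 and Hoxc13 at 1.62. Hoxb6 stayed above both paralogues, at 2.38 against 1.48 at Hoxa6 and 1.88 at Hoxc6. The lead of Hoxb5 and Hoxb13 over every paralogue therefore did not hold on inside probes. Hoxb9, at 1.07, was lower than its 3 paralogues, which had 1.67 to 2.02, and Hoxb1 lay between its 2. However, Hoxb9 had 32 promoter probes, against 14 at Hoxa9, 19 at Hoxc9 and 14 at Hoxd9. With inside probes alone Hoxb9 averaged 1.63, against 1.63 at Hoxd9, 1.71 at Hoxa9 and 2.13 at Hoxc9.

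**Figure D5:**
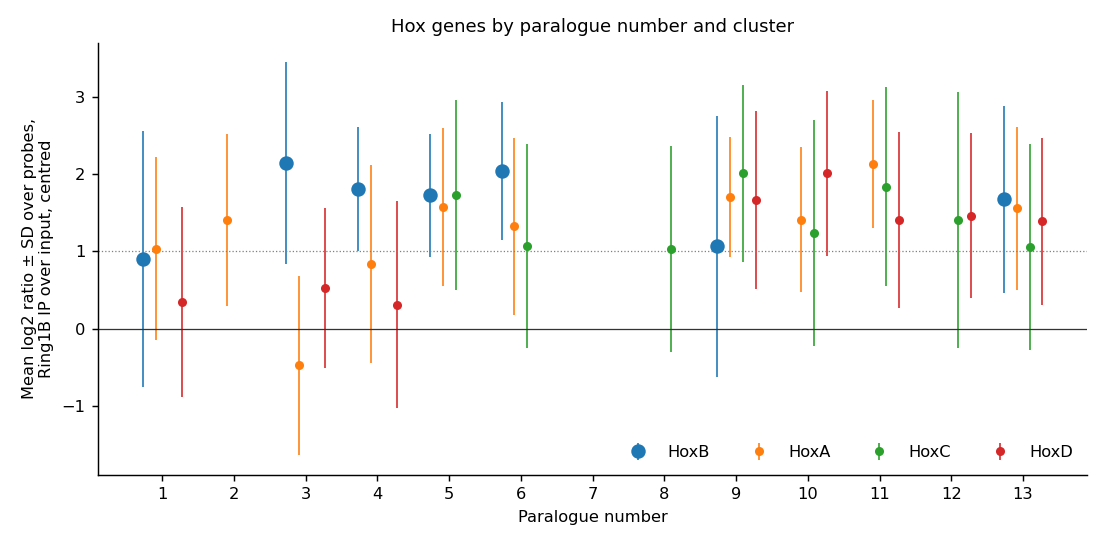
Mean log2 ratio of Ring1B precipitate over input for each Hox gene, by paralogue number, with HoxB (large blue points) left of HoxA, HoxC and HoxD, and bars for the SD over probes. Hoxb3 and Hoxb4 lie above their paralogues and Hoxb9 below, with overlapping bars in most groups.

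Of a list of 20 cofactors, retinoic acid genes and upstream regulators of Hox genes, 19 were measured and 5 had a mean of at least 1, against 1.99% of all genes. The median of the list was 0.53, against -0.10 for all genes. Among the highest were the cofactor Meis2 at 2.31 ± 0.86 and the retinoic acid hydroxylase gene Cyp26a1 at 1.61 ± 1.09. The lowest were the cofactors Pbx2 at -1.13 ± 1.34 and Pknox1 at -0.63 ± 1.30 and the retinoic acid receptor Rarg at -0.19 ± 1.54. Of 6 pluripotency genes, 5 were measured and 0 had a mean of at least 1, against 1.99% of all genes, with means from -0.21 at Pou5f1 to 0.50 at Zfp42. Expression was not measured, so these values do not test the identity of the cells.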

How the data were processed

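Mouse ES cell DNA from a Ring1B immunoprecipitation (Cy5) and from input (Cy3) was measured on 2 Agilent promoter arrays (designs 014716 and 014717, per the file headers). The deposited processed signals are fluorescence intensity values made with Feature Extraction 9.1.3.1 (protocol CGH-v4_91), background-subtracted, with 1 linear dye factor per channel and dim spots at a floor value, per the file headers. The deposited log10 ratio is that of the Cy5 over the Cy3 signal, per the file headers, and its log10 error was turned into log2. The deposited series table was found to hold the log2 ratio of mean signals without centring (largest difference 5.0e-05), with medians of 0.774 on slide 1 and 0.798 on slide 2.

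Control spots and 141 and 17 outlier probes on slides 1 and 2 were left out (237054 and 237168 used), and log2 ratios were centred on each slide's median probe (0.23 and 0.16). A gene value is the mean over at least 3 probes. The number of arrays limits the precision. The gene means were checked on simulated data in which probes were independent. Region lengths could not be checked in this way, since neighbouring Hoxb probes of a gene were correlated (r = 0.46). Normexp (offset 50) and loess used limma 3.58.1 in R 4.3.3, and the rest Python 3.11.15.

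The genes named were all Hoxb genes, all genes within 300000 bp, the highest and lowest gene of each other Hox cluster, and the 3 highest and 3 lowest of the list of cofactors and regulators. One gene that this rule takes is not reported here. Members and lists were chosen with earlier results of these data known. Alternatives changed background correction, normalization, centring, filters, GC correction, summary, threshold and region settings. Replicates could not be left out, since the arrays carried different probes. 1 gene each of the pluripotency and regulator lists was not analysed here.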

Additional observations from a re-analysis of the deposited data

How the results depend on the processing

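The number of Hoxb genes with a mean of at least 1 was 6 or 7 under the 8 processing alternatives and with the median of the probes, 7 at a threshold of 0.5 and 5 at 1.5. Counted after seeing the data, it was 5 with promoter probes alone and 7 with inside probes alone. It was 7, with Hoxb1 included, under normexp, loess, no centring, the deposited series table and the median of the probes. Of all genes, 1.99% to 2.99% had a mean of at least 1 under the 8 processing alternatives, 7.62% reached 0.5 and 0.65% reached 1.5. All genes were not counted for the median of the probes or for promoter or inside probes alone. The share of Hoxb probes at or above 1 was 74.6% to 79.9% under the processing alternatives at the threshold of 1, against 17.8% to 25.7% of the probes of slide 2. The share of Hoxb probes was 83.0% at a threshold of 0.5 and 62.1% at 1.5, against 31.2% and 13.9% of the probes of slide 2. The longest HoxB region was 10406 to 12386 bp, except that it was 5547 bp with a running mean of at least 1.5 and 1886 bp with a window of 250 bp, where fewer probes enter each mean. No gene mean changed sign. Over their 11 alternatives the means ranged from 0.44 to 1.74 for Hoxb1, 1.78 to 2.49 for Hoxb3, 1.80 to 2.22 for Hoxb4, 1.71 to 2.14 for Hoxb5, 1.90 to 2.43 for Hoxb6, 0.84 to 1.63 for Hoxb9 and 1.68 to 2.06 for Hoxb13. The low ends of Hoxb1 and Hoxb9 came from promoter probes alone, which put both below 1. The median of all genes, -0.10, moved to 0.10 without centring, 0.01 with normexp, 0.02 with the series table and -0.28 without probes dim in input. The median gene mean was higher in HoxB than in HoxA, HoxC and HoxD in the reported processing and its 8 processing alternatives (1.73 to 2.14 in HoxB). With inside probes alone, however, the middle gene of HoxB (Hoxb4, 1.80) lay below those of HoxC (Hoxc12, 1.94, and Hoxc5, 2.03). The clusters were not compared by this median with promoter probes alone. With upstream limits chosen after seeing the data, the outer mean of Hoxb1 was -0.40 at 2000 bp, the inner mean of Hoxb9 was 1.74 at 3000 bp, and its outer mean was 0.16 at 2000 bp and 0.04 at 3000 bp. No paired analysis was possible because each slide carries other probes of the same experiment and no test was made. With 1 array per promoter, no difference between genes can be set against the spread between repeats.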
